A study of Mus musculus with 9 samples.

Results

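Transcripts of 9 genes for high mobility group (HMG) proteins and histone variants were followed in engineered mouse muscle: Hmga1, Hmga2, Hmgb1, Hmgb2, Hmgb3, Hmgn1, Hmgn2, H1f0 and Macroh2a1. The genes were taken by symbol from the deposited count files and are 9 of 40879 symbols listed and 9 of 11980 genes that passed a filter on low counts and were tested. The constructs were made from wild-type C2C12 cells, a single line of mouse myoblasts able to form multinucleate myotubes in low-growth medium, seeded in matrix prepared from muscle tissue. All 9 constructs spent 2 days in growth medium with 10% fetal bovine serum and then 10 days in differentiation medium with 10% equine serum. The 3 normal constructs were not irradiated, the 3 irradiated constructs received 20 Gy of X-rays in 1 dose to induce senescence, and the 3 cocultured constructs were unirradiated constructs kept beside an irradiated construct, which was not itself collected. The design text describes 2 constructs per dish and gives n = 2 for the normal and irradiated conditions. The labels list 3 libraries for each, and all were used. When irradiation took place within the culture period is not given in the sources used here.

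HMG proteins are small, abundant chromatin proteins that bend or loosen DNA rather than recognising a gene. HMGA proteins bind AT-rich DNA through AT hooks, are high in embryonic and dividing cells, and can also build up in the condensed chromatin of senescent cells. HMGB proteins bend DNA through paired HMG boxes. HMGB1 is also released from stressed or senescent cells as an alarm signal, and HMGB2 is known to be lost from chromatin in senescence. HMGN proteins bind nucleosomes and compete with linker histone. H1f0 encodes the linker histone H1.0, which accumulates as cells leave the cell cycle and differentiate, and Macroh2a1 encodes macroH2A1, a large H2A variant of silent chromatin and of senescence-associated heterochromatin. Only RNA was measured here, so neither the amount, the release nor the chromatin binding of any of these proteins is known.

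The sequences below are shown because they belong to the gene whose group difference was largest relative to its error (Hmga2) and to the pair with the closest shared pattern over the libraries (Hmgb2 and Hmgb3). Hmga2 is a textbook target of the let-7 microRNAs, which pair through their seed with sites in its 3′ untranslated region. The 9 mature mouse let-7 sequences used here were picked from the RefSeq table for GRCm38.p6 by their seed, GAGGUAG at bases 2 to 8. The seed is in capitals in these 2 examples.
let-7a: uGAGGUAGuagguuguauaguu
let-7i: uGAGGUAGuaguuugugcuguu
The longest 3′ untranslated region of an Hmga2 transcript in the GENCODE M21 annotation is 3014 bases long. It holds 4 matches to the seed complement CTACCTC, which is in capitals in these 24-base stretches. They start at bases 58, 1295, 1733 and 2591 of the region.
site 1: cgccgacattcaatttCTACCTCa
site 2: tccccactcctcaataCTACCTCt
site 3: cctgatttgcaaggaaCTACCTCc
site 4: caatcaaaacacactaCTACCTCt
Hmga1 held 1 such match and the other 7 genes held none, with the longest such region used for every gene. Of 10764 tested genes with an annotated 3′ untranslated region, 10.4% held at least 1 match and 0.149% held at least 3. The letters describe possible pairing only, since oligo-dT primed libraries do not measure let-7.

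Promoters of Hmgb2 and Hmgb3 follow as RefSeq gives them on GRCm38.p6, from 250 bases before the annotated start to 50 bases after it, on the strand of the gene. Capitals mark CCAAT, the box bound by NF-Y, and TTTGAA, the core of the cell cycle genes homology region, on either strand, so that TTTGAA on the opposite strand reads TTCAAA. The windows lie at chr8:57511593-57511892 for Hmgb2 and at chrX:71555667-71555966 for Hmgb3, both on the plus strand.
Hmgb2: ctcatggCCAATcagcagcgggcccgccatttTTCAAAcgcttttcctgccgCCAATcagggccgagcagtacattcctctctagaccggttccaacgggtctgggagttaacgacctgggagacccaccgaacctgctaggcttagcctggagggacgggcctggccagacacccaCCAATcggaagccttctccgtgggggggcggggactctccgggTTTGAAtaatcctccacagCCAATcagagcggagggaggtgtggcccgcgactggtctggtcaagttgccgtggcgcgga
Hmgb3: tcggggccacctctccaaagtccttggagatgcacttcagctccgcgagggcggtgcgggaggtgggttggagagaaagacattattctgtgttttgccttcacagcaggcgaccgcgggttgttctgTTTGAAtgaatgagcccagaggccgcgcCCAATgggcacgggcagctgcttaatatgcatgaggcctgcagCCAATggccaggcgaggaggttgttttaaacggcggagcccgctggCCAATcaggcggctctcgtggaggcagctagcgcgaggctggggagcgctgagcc
Hmgb2 held 4 CCAAT and 2 TTTGAA matches and Hmgb3 held 3 and 1. The matches do not overlap each other. Among 32851 promoter windows of this length, 37.4% held CCAAT, 17.9% held TTTGAA and 6.95% held both. At least 2 CCAAT together with TTTGAA were found in 2.09%. All 9 genes had a promoter in the table, with 11 windows in all. Hmgb1 held 3 CCAAT in 1 of its 2 windows, Hmgn1 held 2 and Hmgn2 held 1, each without TTTGAA. The windows of Hmga1, Hmga2, H1f0 and Macroh2a1 held neither set of letters. A match shows the letters and not a bound factor.

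Library facts that touch every value are these. Totals ran from 4840993 to 8290468 counts, and values below are normalised CPM, read counts brought to a common library size with TMM factors of 0.556 to 1.29. Irradiated 2 and irradiated 3 had the fewest genes detected, 8306 and 8654 against 10002 to 14159 in the other 7. Of genes averaging 20 to 50 CPM over normal and cocultured libraries, 20.5% and 17.1% were at 0 in them, against 0.0675% to 5.23% elsewhere. Irradiated libraries took no part in choosing those genes, so genes truly lower in irradiated constructs count among the zeros. Adult sarcomere genes took 14.7% of counts in normal 3 and 11.4% in irradiated 1, and between 0.805% and 2.46% in the other 7 libraries. Replicates differed widely, with a square root of the common dispersion of 1.32. Muscle markers were detected in all 3 groups (14 of 14). Their summed level lay between 6407.5 and 111096 CPM in normal, between 10946 and 69279 in irradiated and between 6139.3 and 11842 in cocultured constructs. Fibroblast and fibroadipogenic markers (7 of 7) reached 8252 to 18614 CPM, a range that covers all groups. Group means ran from 6350 to 8143 CPM for Dcn and from 3927 to 5518 for Col3a1. They ran from 34.5 to 45.0 CPM for Pdgfra and from 0.0357 to 4.38 for Thy1. Endothelial, immune, adipocyte and neural markers, each list taken alone, summed to at most 97.96 CPM in any library, reached by adipocyte markers in normal 3. Ptprc was at 0 in normal and irradiated constructs, Cd3e was at 0 in all 9, and Pecam1 was at 0 in normal and cocultured constructs. Others had counts, with maxima of 37.2 CPM for Csf1r, 85.6 for Fabp4 and 33.6 for S100b in normal constructs. Kdr reached 22.9 CPM in irradiated constructs. The part of these differences in the results below was not tested. In bulk RNA, fewer cells of a type and less RNA per cell cannot be told apart.

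No gene of the 9 passed an adjusted p of 0.05 in edgeR's quasi-likelihood test in any of the 3 comparisons. Across all genes that test called 0.0584% in irradiated against normal, 0% in cocultured against normal and 0.0334% in irradiated against cocultured constructs. At an unadjusted p under 0.05, 3 of the 9 (Hmga1, Hmga2 and Macroh2a1) were lower in irradiated than in normal constructs, where 8.7% of all genes pass in that direction. Hmga1 passed the filter on low counts only through libraries of the other groups, and its unadjusted p of 0.049 in edgeR was 0.100 with no filter and 0.147 with a replicate block. None passed in cocultured against normal, where 4.11% of all genes do, and Hmga2 alone passed in irradiated against cocultured, where 7.33% of all genes are lower at that threshold. DESeq2 called Hmga2 in both comparisons that involve irradiated constructs and no other member, against 5.02% and 5.14% of all genes. It called no member in cocultured against normal, against 0.892%. limma voom called no member in any comparison, against 0.209%, 0% and 0.876% of all genes. The comparisons share libraries: both against normal use the normal constructs, and both with irradiated constructs use those, so agreement between them is not separate evidence.

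**Figure D1:**
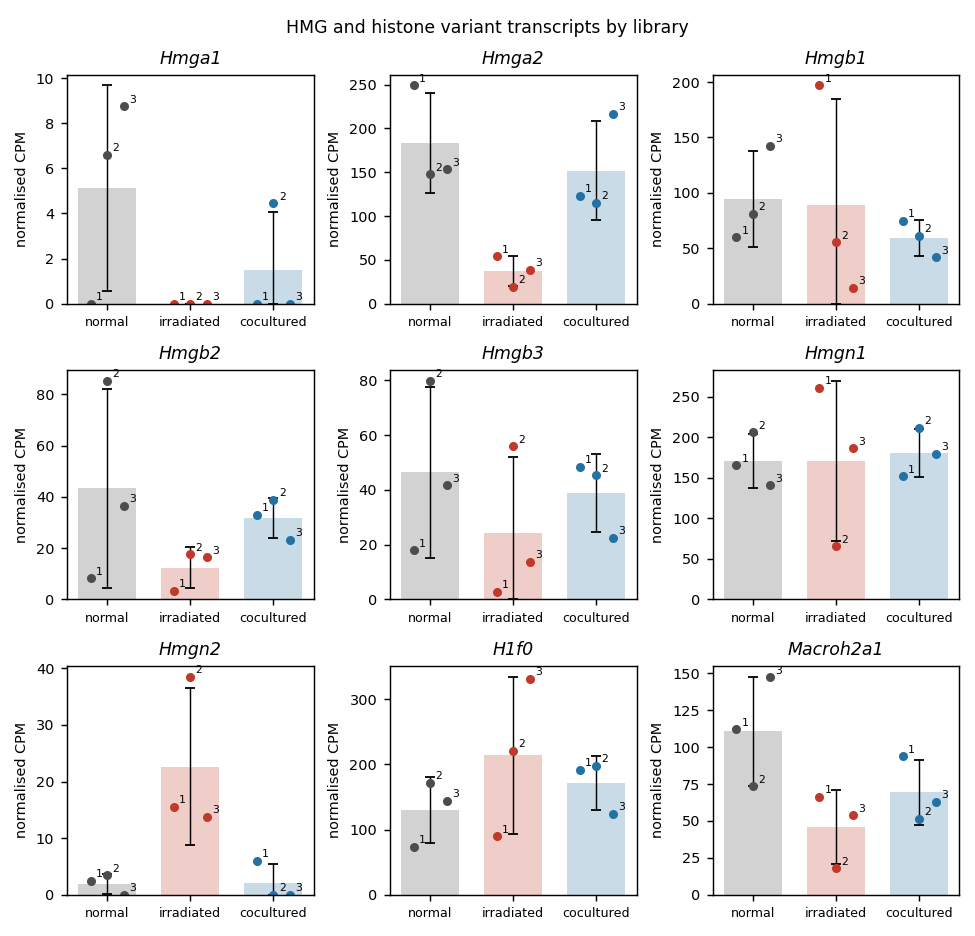
Normalised CPM of each gene in every library, with points numbered by replicate, bars for the group mean and error bars for 1 SD (n = 3), cut off at 0. The irradiated Hmga2 values (19.1 to 54.1 CPM) lie below all 6 others, and the irradiated Hmgn2 values (13.7 to 38.6 CPM) lie above all 6 others.

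Hmga2, the embryonic AT-hook protein, differed most clearly. Its level was 249.1, 147.7 and 153.2 CPM in normal 1 to 3, 54.1, 19.1 and 38.5 CPM in irradiated 1 to 3, and 123.3, 115.4 and 217.0 CPM in cocultured 1 to 3. Every irradiated library lay below every other library, which 4.77% of all genes tested do, while the normal and cocultured ranges overlapped. The group means were 183 ± 57.0 CPM in normal, 152 ± 56.5 in cocultured and 37.2 ± 17.5 in irradiated constructs (SD, n = 3). The irradiated mean was 4.93-fold below normal, with a log2 fold change of -2.30 ± 0.47 (SE) and an adjusted p of 0.115 in edgeR. Against cocultured constructs it was 4.08-fold lower, with a log2 fold change of -2.03 ± 0.47 and an adjusted p of 0.248 in edgeR. Cocultured and normal constructs differed by less than their spread, with a log2 fold change of -0.27 ± 0.45.

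The call on Hmga2 depended on the model, while its direction in irradiated constructs did not. Irradiated against normal, the log2 fold change lay between -2.78 and -1.76 in all 19 alternatives. The adjusted p was 0.00096 in DESeq2, 0.0081 in edgeR with no filter on low counts (0.698% of all genes called) and 0.031 in edgeR without irradiated 1 (1.11% called). It was 0.078 in limma voom, 0.055 with a replicate block, 0.337 with only the 6 libraries compared and 0.591 without normal 1, the highest of the 9 libraries. Without irradiated 2 and 3, the 2 libraries with few genes detected, the edgeR log2 fold change was -1.76 ± 0.61 with an adjusted p of 0.189. That fit leaves irradiated 1 as the only irradiated library, which is assumed to vary like the libraries of the other groups. Without normal 3 and irradiated 1, the 2 libraries rich in sarcomere transcripts, it was -2.78 ± 0.54 with an adjusted p of 0.100. Against cocultured constructs, DESeq2 (adjusted p = 0.0061) and edgeR with no filter (adjusted p = 0.028, 0.822% of all genes called) made the call. Counts behind these values were 560 to 1213 in normal and 203 to 328 in irradiated constructs, and no 50-base stretch of the last 300 bases of the Hmga2 transcript was shared with another gene.

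**Figure D2:**
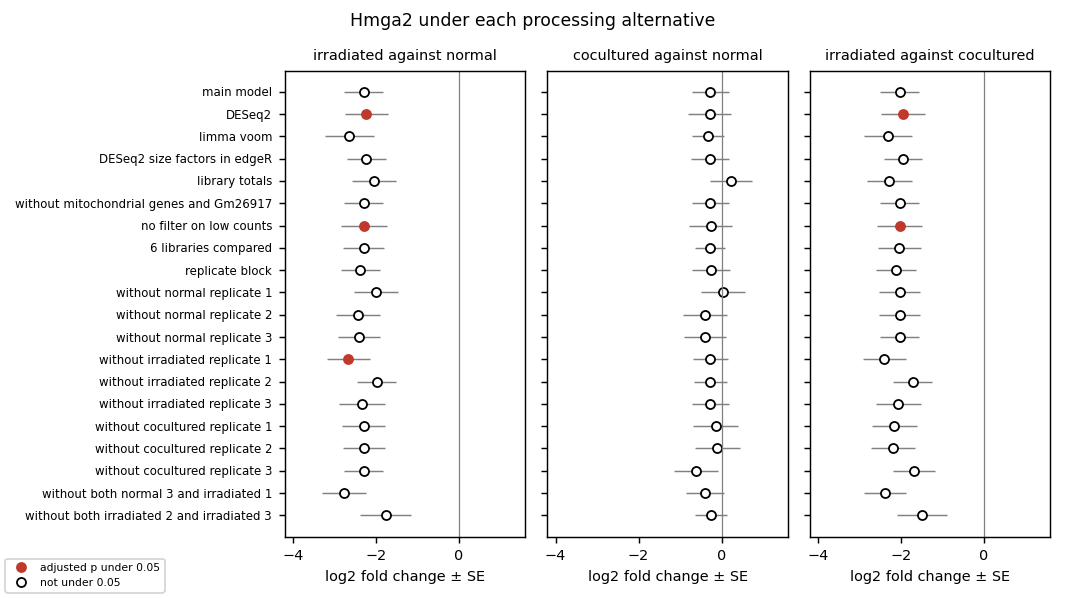
Hmga2 log2 fold change with its SE (x axis) in each of 3 comparisons under the main model and 19 alternatives (y axis), with filled red points where the adjusted p was under 0.05. All values against normal and against cocultured constructs lie below 0 for irradiated constructs, with 3 and 2 filled points.

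Hmga1, the other AT-hook gene, was scarcely detected. Its counts were 0, 29 and 32 in normal, 0, 0 and 0 in irradiated and 0, 43 and 0 in the cocultured group. With no count in any irradiated library, the level was at least 37.5-fold lower than the normal mean of 5.12 ± 4.56 CPM, taking 3 counts summed over the 3 irradiated libraries as the floor, although normal 1 was at 0 as well and the groups overlapped. The adjusted p was 0.483 in edgeR. Against cocultured constructs the same floor gave at least 12.3-fold lower, where 43 counts of 1 library made the whole difference. Hmga1b, a near-identical gene that shares 75.3% of the 50-base stretches at the Hmga1 transcript ends, had 7, 14 and 2 counts in normal, 0, 0 and 1 in irradiated and 27, 2 and 0 in the cocultured group. Reads could have been split or dropped between the 2 genes, so the level of Hmga1 is uncertain.

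The let-7 and HMGA2 list holds genes that process or oppose let-7, the IGF2BP proteins that HMGA2 is linked to, and the Cdkn2a locus that HMGA2 represses. Of its 12 genes 4 passed the filter. None was called, and 3 of the 4 were lower in irradiated than in normal constructs, where 58.2% of all genes are. The median log2 fold change of the 4 was -0.68, beside -0.21 for all genes tested. Igf2bp2, an RNA-binding protein needed by proliferating myoblasts, averaged 95.8 ± 13.8 CPM in normal but 63.3 ± 34.6 CPM in irradiated constructs (log2 fold change -0.60 ± 0.46, edgeR adjusted p = 0.916). Arid3a averaged 48.4 and 25.9 CPM (log2 fold change -0.90 ± 0.76). Cdkn2a and Cdkn2b, the senescence inhibitors of cyclin-dependent kinases, were at 0 counts throughout. Lin28b, which blocks let-7 maturation, averaged 3.70 CPM in normal constructs, had 1 count in irradiated and none in cocultured constructs. Genes with let-7 seed matches were described as a class too. The median log2 fold change, irradiated against normal, was -0.16 for 9649 genes with no match, -0.27 for 1115 with at least 1, -0.45 for 136 with at least 2 and -0.66 for 16 with at least 3, a set that includes Hmga2. For the same classes the medians were -0.03, -0.04, -0.08 and -0.40 in cocultured against normal constructs, and -0.10, -0.18, -0.35 and -0.07 in irradiated against cocultured constructs, where the order did not hold for the last class. These classes overlap, and no test was made of them. Matches were counted in the longest annotated region of each gene, and a longer region can hold more of them. The classes were not matched for region length, so the order of medians cannot be credited to let-7.

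Hmgb1, the alarm-signal protein, showed no group pattern. Its level was 59.8, 81.1 and 142.6 CPM in normal, 197.0, 55.3 and 14.5 CPM in irradiated and 74.9, 61.0 and 41.9 CPM in cocultured constructs. The irradiated libraries spanned 13.5-fold, with irradiated 1 the highest and irradiated 3 the lowest of all 9. The order of means was normal 94.5 ± 43.0, irradiated 88.9 ± 95.7 and cocultured 59.3 ± 16.5 CPM, and no pair of groups differed beyond its spread. The log2 fold change was -0.09 ± 0.73 against normal for irradiated and -0.67 ± 0.73 for cocultured constructs. Leaving out irradiated 1 moved the first value to -1.43, and leaving out irradiated 3 moved it to 0.41. The 2 highest libraries, irradiated 1 and normal 3, are those in which adult sarcomere genes took 11.4% and 14.7% of counts. The part of sarcomere content in this was not tested. Hmgb1 has many processed copies in the mouse genome: 58% of the 50-base stretches at its transcript ends recur in 130 other annotated genes, 4 of them listed in the files with 134 counts beside 4466 for Hmgb1.

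Hmgb2, the paralog lost from senescent chromatin, was lower in irradiated constructs on average but within the reach of a single normal library. Its level was 8.2, 85.2 and 36.4 CPM in normal, 3.2, 17.6 and 16.3 CPM in irradiated and 32.9, 38.9 and 23.2 CPM in cocultured constructs. All irradiated libraries lay below all cocultured ones, as 10.6% of all genes do, whereas normal 1 lay between irradiated 1 and the other 2 irradiated libraries. Means were 43.3 ± 39.0, 31.6 ± 7.93 and 12.4 ± 7.97 CPM in normal, cocultured and irradiated constructs. The log2 fold change of irradiated constructs was -1.80 ± 1.07 against normal (edgeR adjusted p = 0.673) and -1.35 ± 1.05 against cocultured constructs (edgeR adjusted p = 0.828). It was negative in all 19 alternatives of both comparisons. Leaving out normal 2 moved the first value to -0.84. At its transcript ends 49.6% of 50-base stretches were shared with 7 other annotated genes, none of which is listed in the files.

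Hmgb3, which is active in progenitor cells, followed Hmgb2. Its level was 17.9, 79.8 and 41.6 CPM in normal, 2.8, 55.9 and 13.7 CPM in irradiated and 48.4, 45.3 and 22.4 CPM in cocultured constructs. The irradiated libraries spanned 20.2-fold and irradiated 2 stood above 2 of 3 normal libraries, so the groups overlapped. The log2 fold change was -0.94 ± 1.01 against normal (edgeR adjusted p = 1) and -0.68 ± 1.01 against cocultured constructs. Single libraries decided the size: without irradiated 2 the values were -2.48 and -2.22, without irradiated 1 they were -0.41 and -0.15, and without normal 2 the first was -0.30, none of them called. Over the 9 libraries, log2 levels of Hmgb2 and Hmgb3 had a Pearson r of 0.89 and a Spearman rho of 0.77, the highest r among the 36 pairs of these 9 genes. The points share 9 libraries, their depth and their scaling, and the value is a description. For both genes irradiated 1 was the lowest library and normal 2 the highest. Hmgb1 did not share the pattern (r of -0.15 with Hmgb2 and -0.14 with Hmgb3). At the Hmgb3 transcript ends 44.6% of 50-base stretches were shared with 8 other annotated genes, none of which is listed in the files.

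**Figure D3:**
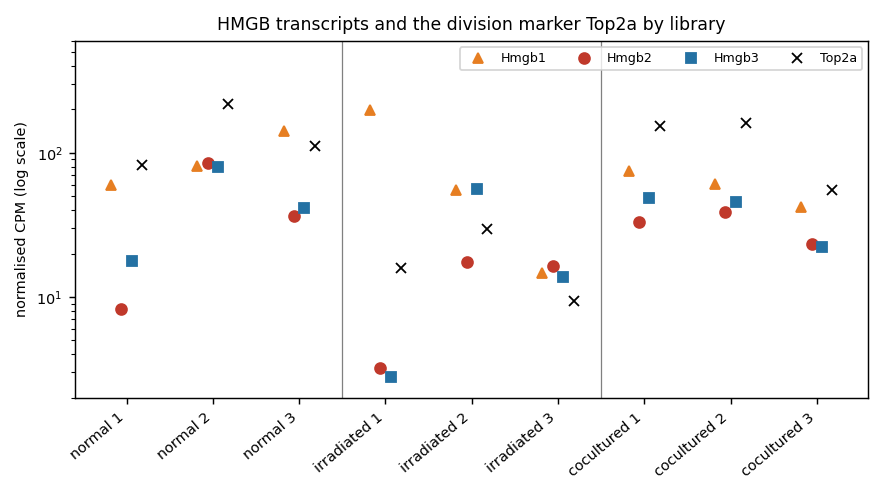
Normalised CPM on a log axis (y) of Hmgb1, Hmgb2, Hmgb3 and Top2a in each library (x), with lines between the groups. Hmgb2 and Hmgb3 are lowest in irradiated 1 (3.2 and 2.8 CPM), the library where Hmgb1 is highest (197.0 CPM), and Top2a is lower in every irradiated library than in every other library.

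HMGB2 is known as a gene of dividing cells, and the proliferation markers are given for that reason. Top2a, the topoisomerase of mitotic chromosomes, stood at 81.7, 218.8 and 110.8 CPM in normal, 15.8, 29.4 and 9.4 CPM in irradiated and 154.1, 161.3 and 54.8 CPM in cocultured constructs. The irradiated libraries lay below all others, as 4.77% of all genes do. The log2 fold change against normal was -2.91 ± 0.61 with an adjusted p of 0.124 in edgeR. Top2a was called in DESeq2 (adjusted p = 0.00088), in edgeR with no filter (adjusted p = 0.0013) and in edgeR with a replicate block (adjusted p = 0.031), and not in limma voom. Mki67 averaged 29.6 CPM in normal, 1.99 in irradiated and 52.6 in the cocultured group, with no count in irradiated 2 and 3, and was called without irradiated 1 (edgeR adjusted p = 0.019). Pcna, the clamp that holds DNA polymerase on its template, had the opposite order, with 10.5 ± 4.10 CPM in normal, 29.0 ± 23.2 CPM in irradiated and 18.6 ± 7.09 CPM in cocultured constructs (log2 fold change of irradiated against normal 1.46 ± 1.24, edgeR adjusted p = 0.984). The 10 proliferation markers were all tested. In irradiated against normal constructs 8 were lower and 2 higher, where 58.2% of all genes are lower. None was called, and the median log2 fold change of the 10 was -2.30, beside -0.21 for all genes. Of the 8, 2 had no count in irradiated constructs and passed the filter only through the other groups, which fixed their direction. The summed level of the 10 markers was 207 to 548 CPM in normal, 73.0 to 145 CPM in irradiated and 176 to 443 CPM in cocultured constructs. Hmgb2 was at 8.2 CPM in normal 1, where Top2a was at 81.7 CPM, and at 17.6 CPM in irradiated 2, where Top2a was at 29.4 CPM.

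By the rule of highest Pearson r over the 9 libraries among 5983 genes averaging at least 20 CPM, the genes most like Hmgb2 were Tbc1d10b (r of 0.90), Afg3l2 (0.90) and Rtn3 (0.90). Those most like Hmga2 were Gtpbp1 (0.98), Plekha5 (0.97) and Nr4a2 (0.97). Plekha5 ran at 33.4 to 58.7 CPM in normal and 0.094 to 7.24 CPM in irradiated constructs. Gtpbp1, a GTP-binding protein, ran at 63.2 to 93.7 CPM in normal, 16.1 to 30.9 CPM in irradiated and 47.7 to 67.2 CPM in cocultured constructs. Like Hmga2, both were lower in every irradiated than in every other library. With 9 points in 3 groups, a search of this size returns high values for any gene with a group difference, and nothing further is read from them.

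Hmgn1, a nucleosome-binding protein that opens chromatin, was level across the groups. Its values were 165.1, 205.9 and 140.6 CPM in normal, 260.6, 65.3 and 186.0 CPM in irradiated and 151.5, 211.2 and 179.3 CPM in cocultured constructs. The means were 171 ± 33.0 CPM in normal, 171 ± 98.6 in irradiated and 181 ± 29.9 in the cocultured group. The log2 fold change was -0.00030 ± 0.44 for irradiated and 0.08 ± 0.44 for cocultured constructs against normal. With an SE of 0.44, differences of that size in either direction are within the error. The irradiated libraries spanned 3.99-fold, with the lowest value of all 9 in irradiated 2 and the highest in irradiated 1. At the Hmgn1 transcript ends 29.2% of 50-base stretches were shared with 5 other annotated genes, none of which is listed in the files.

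Hmgn2, the paralog of Hmgn1, was detected in all 3 irradiated libraries and hardly elsewhere. It had 73, 410 and 117 counts in irradiated 1 to 3, 12, 15 and 0 counts in normal 1 to 3 and 56, 0 and 0 counts in cocultured 1 to 3. On the normalised scale that was 15.5, 38.6 and 13.7 CPM in irradiated, 2.5, 3.4 and 0 CPM in normal and 6.0, 0 and 0 CPM in cocultured constructs. Irradiated libraries lay above all 6 others, as 1.79% of all genes do. For irradiated above normal libraries alone that share is 3.94%. The means differed 11.5-fold from normal and 11.3-fold from cocultured constructs. The error was large, and the log2 fold change was 3.51 ± 2.70 against normal (edgeR adjusted p = 0.919) and 3.49 ± 2.69 against cocultured constructs (edgeR adjusted p = 0.823). The direction held in all 19 alternatives of both, with no call, and DESeq2 gave no adjusted p for this gene. Of the 50-base stretches at the Hmgn2 transcript ends, 57.9% recur in 16 other annotated genes, and the 4 of these listed in the files had no counts. Reads that fit several copies are often left out by counting programs, so this low level is uncertain.

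H1f0, the linker histone of resting cells, had the largest counts in irradiated 2 and 3. Its level was 73.1, 171.6 and 144.2 CPM in normal, 89.4, 220.5 and 331.3 CPM in irradiated and 192.0, 198.2 and 124.0 CPM in cocultured constructs. Irradiated 1 lay within the normal range, and all groups overlapped. The order of means was irradiated 214 ± 121, cocultured 171 ± 41.2 and normal 130 ± 50.8 CPM, with no neighbours apart beyond their spread. The log2 fold change against normal was 0.72 ± 0.48 (edgeR adjusted p = 0.789) for irradiated and 0.40 ± 0.47 (edgeR adjusted p = 1) for cocultured constructs. The higher level rests on irradiated 2 and 3, the libraries with the fewest genes detected: without both, irradiated 1 alone gave -0.54, opposite in sign. No 50-base stretch at the transcript end was shared with another gene.

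The other linker histones had values in the opposite direction. Of 9 listed, 5 passed the filter and none was called. All 5 were lower in irradiated than in normal constructs, where 58.2% of all genes are. The median log2 fold change of the 5 was -2.94, beside -0.21 for all genes. Of the 5, 2 had no count in irradiated constructs and passed the filter only through the other groups, which fixed their direction. Most replication-dependent H1 messages end in a stem-loop rather than a poly(A) tail, so oligo-dT priming captures them poorly and their levels need care. H1f4, a replication-dependent linker histone, stood at 238.0, 232.7 and 85.6 CPM in normal, 35.6, 0 and 37.2 CPM in irradiated and 231.4, 244.6 and 128.6 CPM in cocultured constructs. It lay lower in every irradiated library than in every other, as 4.77% of all genes do. The log2 fold change of H1f4 against normal was -2.94 ± 1.14, with an adjusted p of 0.483 in edgeR. With no filter on low counts H1f4 was called (edgeR adjusted p = 5.7e-05), and it was not called in DESeq2, in limma voom or with a replicate block. H1f10, which like H1f0 is expressed outside S phase, averaged 27.2 CPM in normal, 3.61 in irradiated and 8.45 in the cocultured group (log2 fold change of irradiated against normal -2.91 ± 2.06, edgeR adjusted p = 0.858). For both genes irradiated 2 gave no count. Of genes of moderate level in normal and cocultured constructs, 20.5% were at 0 in that library, whether undetected or truly lower. The part of this in the values of H1f4 and H1f10 was not tested.

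Macroh2a1, the H2A variant of silent chromatin, was lower in irradiated than in normal constructs without a call. Its level was 112.1, 73.4 and 147.2 CPM in normal, 66.2, 17.96 and 53.7 CPM in irradiated and 93.7, 51.3 and 63.1 CPM in cocultured constructs. The irradiated and normal groups did not overlap, as is so for 11.8% of all genes in this direction, and the cocultured libraries overlapped both. The means, 111 ± 36.9, 69.4 ± 21.9 and 46.0 ± 25.05 CPM in normal, cocultured and irradiated constructs, span 2.41-fold. The log2 fold change was -1.27 ± 0.56 (unadjusted p = 0.040, edgeR adjusted p = 0.483) for irradiated and -0.68 ± 0.55 (edgeR adjusted p = 1) for cocultured constructs against normal. The sign was negative in all 19 alternatives of both comparisons. Irradiated against cocultured constructs gave -0.59 ± 0.55. Over the 9 libraries Macroh2a1 and Hmga2 had a Pearson r of 0.79 and a Spearman rho of 0.72, and Hmga2 and H1f0 had -0.55 and -0.73, as a description.

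**Figure D4:**
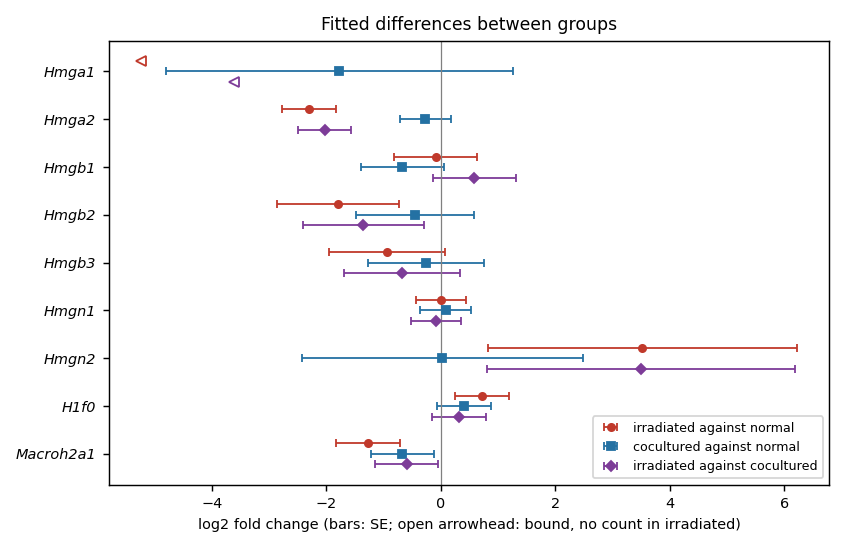
Fitted log2 fold change with its SE (x axis) for the 9 genes (y axis) in 3 comparisons, with open arrowheads at the bound for Hmga1, which had no count in irradiated constructs. Hmga2 lies farthest from 0 relative to its SE (-2.30 ± 0.47), and the cocultured values lie within about 1 SE of 0 for most genes.

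In cocultured against normal constructs no gene of the 9 separated the groups, where 13.2% of all genes do in either direction. Of the 9 log2 fold changes 6 were negative and 3 positive, between -1.77 and 0.40, with a median of -0.27 beside -0.07 for all genes tested, of which 53% were negative. Scaling by library totals in place of TMM factors moved the median of all genes by 0.53 in this comparison. The values of Hmga2, Hmgb1, Hmgb2 and Hmgb3 then turned positive (0.23, 0.01, 0.10 and 0.29). Relative to that shift they were -0.30, -0.52, -0.43 and -0.24. In irradiated against normal constructs 7 of 9 were negative, where 58.2% of all genes are, and the median was -0.94 beside -0.21.

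Macroh2a2, the paralog of Macroh2a1, had 94, 143 and 0 counts in irradiated, 0, 16 and 0 in normal and 12, 33 and 0 in cocultured constructs. Its log2 fold change of 3.18 ± 3.18 against normal was no larger than its error. Among 7 tested core histone variants 5 were lower and 2 higher in irradiated than in normal constructs, and none was called. The median of the 7 was -0.42, beside -0.21 for all genes, of which 58.2% were lower. H3f3b, a gene for the replication-independent histone H3.3, averaged 269 ± 106 CPM in normal, 388 ± 117 in irradiated and 495 ± 142 in the cocultured group. Its cocultured value had a log2 fold change of 0.88 ± 0.39 against normal (edgeR adjusted p = 1). H3f3a, the other H3.3 gene, averaged 10.8 and 2.34 CPM in normal and irradiated constructs (log2 fold change -2.21 ± 2.34). H2az1, for the variant H2A.Z, differed by -0.54 ± 0.85, and Cenpa, the centromeric H3, by -1.44 ± 2.17. H2ax, the damage-marked H2A variant, was at 0 counts in all 9 libraries. Whether its message was absent or was not captured or counted was not tested.

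Chaperones that place or remove histones were lower in irradiated constructs in 18 of 24 tested genes, where 58.2% of all genes are lower. The median log2 fold change of the 24 was -0.46, beside -0.21 for all genes, with no call. Nap1l1, a chaperone of H2A and H2B, stood at 321.4, 421.3 and 375.7 CPM in normal, 235.7, 202.7 and 197.0 CPM in irradiated and 472.6, 315.3 and 363.0 CPM in cocultured constructs. The irradiated libraries lay below all others, as 4.77% of all genes do. The log2 fold change against normal was -0.82 ± 0.30 (edgeR adjusted p = 0.483). Anp32e, which removes H2A.Z, averaged 113 ± 25.5 CPM in normal, 53.7 ± 21.3 in irradiated and 119 ± 31.3 in the cocultured group. Its irradiated libraries also lay below all others, as the same 4.77% do (log2 fold change against normal -1.08 ± 0.44, edgeR adjusted p = 0.483). Ubn2, a subunit of the HIRA chaperone complex, averaged 138 ± 40.9 CPM in normal, 143 ± 83.1 CPM in irradiated and 83.2 ± 35.9 CPM in cocultured constructs (log2 fold change of cocultured against normal -0.73 ± 0.50, edgeR adjusted p = 1). Heterochromatin factors were lower in irradiated constructs in 16 of 20, beside the same 58.2% of all genes, with a median of -0.48 and no call. Of the 16, 1 had no count in irradiated constructs and passed the filter only through the other groups. Cbx1, which encodes HP1 beta, averaged 207 ± 100.3 CPM in normal but 113 ± 19.9 CPM in irradiated constructs (log2 fold change -0.88 ± 0.42). Ehmt2, a methyltransferase of histone H3, differed by -1.29 ± 0.67. In cocultured against normal constructs the heterochromatin median was -0.30 and that of the chaperones 0.01. Cbx3, which encodes HP1 gamma, was at 84.1, 39.7 and 49.1 CPM in cocultured and 132.1, 155.2 and 107.3 CPM in normal constructs. These groups did not overlap, as is so for 13.2% of all genes in either direction (log2 fold change -1.19 ± 0.42, edgeR adjusted p = 1).

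**Figure D5:**
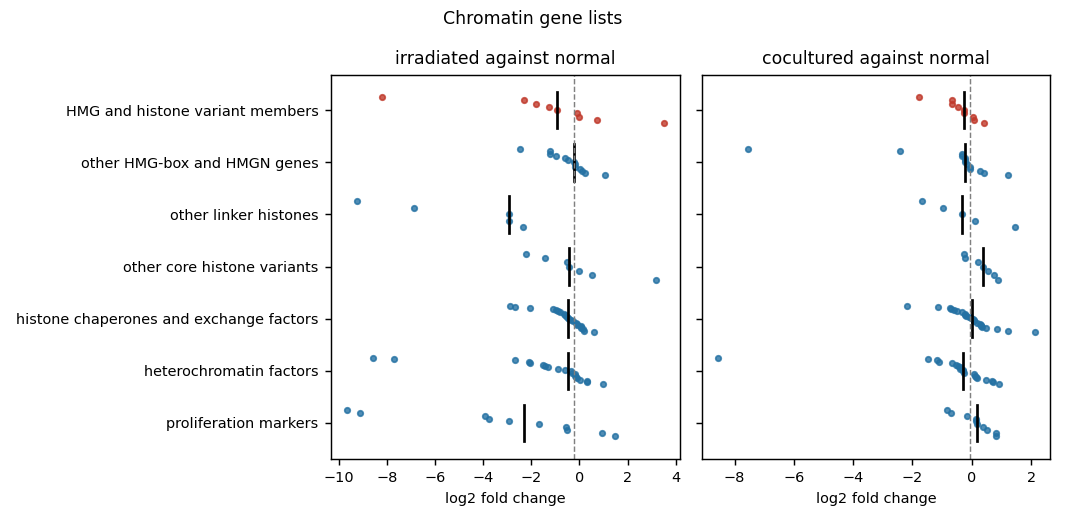
Log2 fold change (x axis) of each tested gene in 7 lists (y axis), irradiated and cocultured against normal, with black bars at list medians and a dashed line at the median of all genes tested. Points beyond about -6 are genes with no or almost no count in the first group, whose fitted size is no bound. The linker histone and proliferation medians (-2.94 and -2.30) lie lowest for irradiated constructs. In each of these lists, 2 tested genes had no count in irradiated constructs and passed the filter only through the other groups.

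Among the other HMG-box and HMGN genes, 9 of 13 were lower in irradiated than in normal constructs, where 58.2% of all genes are. The median of the 13 was -0.21, the same as that of all genes, and none was called. Hmgxb4 averaged 43.9 ± 15.3 CPM in normal but 8.02 ± 7.13 CPM in irradiated constructs. These groups did not overlap, as is so for 11.8% of all genes in this direction (log2 fold change -2.45 ± 1.38, edgeR adjusted p = 0.621). Tfam, the HMG-box protein that packages mitochondrial DNA, averaged 31.4 ± 7.85 and 65.9 ± 39.8 CPM (log2 fold change 1.07 ± 0.74). Hmgn5 averaged 44.5 ± 21.9 CPM in normal, 29.2 ± 39.97 in irradiated and 8.37 ± 10.3 in the cocultured group. Its cocultured and normal libraries did not overlap, as is so for 13.2% of all genes in either direction (log2 fold change -2.41 ± 1.69, edgeR adjusted p = 1).

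Genes for HMGB1 receptors and partners and for its export and modification were listed as well, 16 in all and 13 tested. Of these, 6 were higher and 7 lower in irradiated than in normal constructs, where 58.2% of all genes are lower. None was called, and the median of the 13 was -0.26, beside -0.21 for all genes. Cxcl12, the chemokine that forms a complex with HMGB1, stood at 41.3, 315.0 and 133.5 CPM in normal, 816.8, 1254 and 783.6 CPM in irradiated and 377.8, 359.6 and 246.4 CPM in cocultured constructs. Irradiated libraries lay above all others, as 1.79% of all genes do. The log2 fold change against normal was 2.54 ± 0.57 with an adjusted p of 0.146 in edgeR, 0.0017 in DESeq2 and 0.033 in limma voom. In edgeR it was also called with a replicate block (2.76, adjusted p = 0.028), with no filter (adjusted p = 1.6e-07) and without normal 2 (3.45, adjusted p = 0.031). Thbd, thrombomodulin, which binds HMGB1 and blocks its signalling, averaged 188 ± 94.5 CPM in normal but 39.2 ± 41.4 CPM in irradiated constructs. These groups did not overlap, as is so for 11.8% of all genes in this direction (log2 fold change -2.26 ± 0.67, edgeR adjusted p = 0.350). Thbd was called in edgeR with no filter (adjusted p = 0.016) and without irradiated 3, which moved the log2 fold change to -3.61 (adjusted p = 0.018). The receptors differed in direction, and none of them was called in the edgeR model. Tlr4 averaged 108 ± 34.9 CPM in normal and 48.3 ± 12.1 CPM in irradiated constructs, without overlap, as for the same 11.8% of all genes (log2 fold change -1.16 ± 0.44, edgeR adjusted p = 0.483). Tlr2 averaged 5.87 ± 5.22 and 37.5 ± 25.4 CPM, with overlap (log2 fold change 2.67 ± 2.01, edgeR adjusted p = 0.904). Ager, which encodes RAGE, had 25 counts in normal and none in irradiated or cocultured constructs, and was not tested.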

How the data were processed

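RNA from 9 constructs was turned into 3′ end libraries (100 ng of total RNA, QuantSeq FWD kit with oligo-dT priming) and read as single-end 75 bp reads, per the labels' protocols, which mention no molecular identifiers. The submitters' processing notes name FastQC, STAR, HTSeq, GRCm39 and mm39. Not given in the sources used here are versions, the annotation, the strand setting and duplicate handling. The deposited files hold whole-number read counts per gene symbol, without normalization, per the file headers. Column names inside the files number the libraries 1 higher than the labels do, and samples follow the series' record of each file.

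Groups follow the titles, which call the replicates biological. Constructs may have shared a dish, so p-values reflect only how far these samples spread, which may be technical. Libraries of a group were compared in pairs, and all differed by more than the noise of sampling reads (mean chi-square per gene of 35.4 to 297). Reads without molecular identifiers are not independent molecules, so this cannot show that the libraries are separate samples. All were kept as separate because the titles list them so.

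Counts were tested with edgeR 4.0.16 (limma 3.58.1, R 4.3.3): filterByExpr defaults, TMM factors, and a quasi-likelihood fit on all 9 libraries with group as the only term. Calls were made at a Benjamini-Hochberg adjusted p under 0.05 over 11980 genes. Standard errors were approximated as the log2 fold change divided by the root of F. Data were simulated for irradiated against normal constructs (11980 genes, 50 changed at each size). With dispersions estimated from these libraries, 2-fold changes were recovered in 0% of cases, 4-fold in 6%, 8-fold in 34% and 16-fold in 50%. In that run 0 unchanged genes were called. At a low dispersion, 2-fold changes were recovered in 54% and 4-fold, 8-fold and 16-fold changes in 100% of cases. That run called 12 unchanged genes. As alternatives, DESeq2 1.42.0 and limma voom were run, the scaling and the filter were changed, a replicate block was added and libraries were left out. Bounds and floors cover counting error only, and reads without molecular identifiers are not independent molecules.

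The 9 genes and the lists of related genes were chosen with earlier results of these data known. Beside the 9, the text names up to 2 tested genes of each list with the smallest p in irradiated against normal and 1 in cocultured against normal (at least 10 CPM on average), a panel (H2az1, H2ax, H3f3b, Macroh2a2, Cenpa, H1f10) and 3 genes of most similar pattern for Hmgb2 and Hmga2. Hmga1b, Lin28b, Ager, Tlr2, Tlr4, Cdkn2a and Cdkn2b were named outside this rule after their values were seen. Genes named for a small p will often have groups that do not overlap, so that separation is not further evidence. Shared 50-base stretches and seed matches were counted in GENCODE M21 transcripts, a build that differs from that of the files, so those serve for sequence only.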

Additional observations from a re-analysis of the deposited data

How the results depend on the processing

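Genes called in irradiated against normal, cocultured against normal and irradiated against cocultured constructs numbered 7, 0 and 4 in the edgeR model. They numbered 667, 134 and 635 in DESeq2, 25, 0 and 105 in limma voom, 130, 52 and 153 with no filter, 0, 0 and 0 with only the 6 libraries compared, 9, 0 and 9 with library totals, 20, 1 and 21 without normal 3 and irradiated 1, and 190, 96 and 449 without irradiated 2 and 3. The last fit has 1 irradiated library, assumed to vary like the other groups, and its calls on irradiated constructs rest on that library. With single libraries left out the counts ran from 6 to 147, 0 to 0 and 1 to 97, with the highest in both cases without irradiated 1. Replicate numbers did not pair the samples (same-number correlations -0.071 to 0.054, 3 of 9 libraries closest to their own number), and with a replicate block the counts were 23, 0 and 12. No member was called under that block. Hmga2 gained the call in 5 cases given above, and no other member was called in any alternative. Among the other genes named, H1f4, Cxcl12, Thbd, Top2a and Mki67 gained a call in irradiated against normal constructs under the alternatives given beside them. Without irradiated 2 and 3, H1f4, Cxcl12, Thbd and Top2a were called as well.

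The log2 fold changes that turned sign follow, and the causes were not tested. In irradiated against normal constructs, Hmgb1 was 1.06 without irradiated 2 and 3. Library totals, which moved the median of all genes by 0.38, gave 0.14 for Hmgb1 and 0.24 for Hmgn1. Relative to that shift the values were -0.24 and -0.14, so neither sign turned. Hmgn1 was 0.069 in DESeq2 and with its size factors, 3.18e-06 without mitochondrial genes and Gm26917, 0.0050 with no filter, 0.0030 with 6 libraries and 0.61 without irradiated 2 and 3. The last setting also gave -0.54 for H1f0 and -0.38 for Tfam. In cocultured against normal constructs, library totals gave 0.23 for Hmga2, 0.010 for Hmgb1, 0.098 for Hmgb2 and 0.29 for Hmgb3, each below the 0.53 by which that scaling moved the median of all genes. The replicate block gave 0.17 for Hmgb2, 0.15 for Hmgb3 and -1.24 for Hmgn2, and limma voom gave 0.20 for Hmgb2 and -2.03 for Hmgn2. Without normal 3 and irradiated 1, Hmgn1 was -0.042, Hmgn2 -0.52 and Macroh2a2 -0.21. In irradiated against cocultured constructs, Hmgb1 was -0.44 in limma voom and -0.75 without normal 3 and irradiated 1. Hmgn1 was 0.0063 in DESeq2, 0.0073 with its size factors and 0.52 without irradiated 2 and 3, where H1f0 was -0.95.

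With single libraries left out, irradiated against normal ranged from -1.43 to 0.41 for Hmgb1, -0.44 to 0.39 for Hmgn1 and -9.80 to 0.25 for Cenpa. Cocultured against normal ranged from -0.62 to 0.037 for Hmga2, -0.93 to 0.51 for Hmgb2, -0.63 to 0.39 for Hmgb3, -0.041 to 0.24 for Hmgn1, -6.77 to 0.69 for Hmgn2, -0.90 to 6.58 for Macroh2a2 and -0.18 to 2.24 for Cenpa. Irradiated against cocultured ranged from -0.76 to 1.08 for Hmgb1, -0.53 to 0.30 for Hmgn1 and -0.15 to 0.69 for H1f0. Hmga1 had no value with 6 libraries where irradiated constructs were compared. In normal constructs Hmga1 and Hmgn2 rested on 61 and 27 counts in all, so their differences are poorly determined at this depth.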
